A study of Mus musculus with 2 samples.

Results

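Peaks of same-bin contacts are stretches of chromosome where a Foxa2 HiChIP library holds more contacts inside 1 bin of 50 kb than the bins around it do. They were taken from the vehicle library by a rule: of the 54521 bins of the table, 33196 on the 19 autosomes held at least 100 contacts with both ends in the same bin. These eligible bins were ranked by that count over the median of the 20 bins either side, called the flank ratio here, and the 500 highest are the members, 1.51% of the eligible bins. The members were thus chosen on the vehicle same-bin counts, and those values are given below only to describe them. Liver of wildtype mice was collected 4 h after 1 oral gavage of GW4064, an agonist of the bile acid receptor FXR, or after vehicle alone, a mix of propylene glycol and Tween 80 that the GW4064 mice received too. Each group is 1 library, so nothing was tested, no p-value is given, and every difference is between those libraries and not between the conditions. No source used here gives strain, sex, age, dose or the number of mice behind a library. Contacts do not measure expression, so the tissue label was not checked against marker genes.

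HiChIP ligates DNA ends that lie near each other in the nucleus and then recovers those bound with a chosen protein, here Foxa2, a forkhead factor that opens chromatin at liver enhancers. A contact within a bin joins ends less than a bin's length apart, and its count follows how much of that DNA is recovered as well as how it is folded. FXR is a nuclear receptor that binds bile acids and, in liver, lowers their synthesis and raises their export. Only ligated DNA recovered with the antiserum is counted, so recovery of a bin's DNA and folding inside the bin cannot be told apart in these counts. Nor can the mix of cells in the liver and the contacts per cell, since both libraries are of bulk tissue.

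The promoters of 7 genes whose bins recur below are shown first, to give the sequence behind bins of different kinds: a glucuronosyltransferase locus with its neighbour, a pair of chitinase-like genes, a prolactin-family gene and a cytochrome P450. Each run is the 300 bases from 250 before to 50 after the gene's start, 5′ to 3′ on the gene's strand, from RefSeq on GRCm38.p6, and the capitals mark a forkhead motif. Ugt1a2 and Ugt1a1 start in the same member bin, with windows at chr1:88200361-88200660 and chr1:88211709-88212008 on the plus strand. Hjurp starts in the next bin, with its window at chr1:88277530-88277829 on the minus strand. Chil3 and Chil4 start in neighbouring members, with windows at chr3:106167515-106167814 and chr3:106219430-106219729 on the minus strand. The window of Prl2c3 is chr13:12800030-12800329 and that of Cyp2d26 is chr15:82794196-82794495, both on the minus strand.
Ugt1a2: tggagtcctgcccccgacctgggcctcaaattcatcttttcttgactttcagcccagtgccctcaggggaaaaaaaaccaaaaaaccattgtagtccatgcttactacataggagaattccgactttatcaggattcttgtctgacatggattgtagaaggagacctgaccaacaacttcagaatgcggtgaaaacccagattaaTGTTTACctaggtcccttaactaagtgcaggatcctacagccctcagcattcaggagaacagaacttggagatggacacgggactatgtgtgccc
Ugt1a1: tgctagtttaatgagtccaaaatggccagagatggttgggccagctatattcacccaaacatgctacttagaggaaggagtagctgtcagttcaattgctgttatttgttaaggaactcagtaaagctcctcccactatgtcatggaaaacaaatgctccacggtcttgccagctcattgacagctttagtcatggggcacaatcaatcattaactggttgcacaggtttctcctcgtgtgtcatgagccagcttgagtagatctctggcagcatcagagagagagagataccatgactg
Hjurp: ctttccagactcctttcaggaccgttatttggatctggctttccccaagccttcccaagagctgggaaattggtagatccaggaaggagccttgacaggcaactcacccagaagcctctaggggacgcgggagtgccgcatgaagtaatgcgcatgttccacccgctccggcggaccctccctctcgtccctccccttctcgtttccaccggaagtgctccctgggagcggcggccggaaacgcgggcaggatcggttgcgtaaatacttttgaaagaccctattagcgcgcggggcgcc
Chil3: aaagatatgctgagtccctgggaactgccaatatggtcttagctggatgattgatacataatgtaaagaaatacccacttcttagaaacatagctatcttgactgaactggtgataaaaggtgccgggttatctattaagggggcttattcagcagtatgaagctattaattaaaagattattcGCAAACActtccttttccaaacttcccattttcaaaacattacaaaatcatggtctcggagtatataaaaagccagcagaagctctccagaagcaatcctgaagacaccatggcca
Chil4: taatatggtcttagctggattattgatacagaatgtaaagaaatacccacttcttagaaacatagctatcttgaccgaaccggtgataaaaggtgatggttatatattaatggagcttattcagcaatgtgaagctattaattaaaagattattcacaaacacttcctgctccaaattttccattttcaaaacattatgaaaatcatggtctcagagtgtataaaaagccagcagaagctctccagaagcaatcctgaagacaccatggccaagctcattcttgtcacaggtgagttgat
Prl2c3: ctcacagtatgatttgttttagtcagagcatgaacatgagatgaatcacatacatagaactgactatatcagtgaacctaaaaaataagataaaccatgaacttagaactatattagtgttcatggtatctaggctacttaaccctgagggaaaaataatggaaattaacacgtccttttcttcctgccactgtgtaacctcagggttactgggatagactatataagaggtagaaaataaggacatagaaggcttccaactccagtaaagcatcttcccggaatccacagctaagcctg
Cyp2d26: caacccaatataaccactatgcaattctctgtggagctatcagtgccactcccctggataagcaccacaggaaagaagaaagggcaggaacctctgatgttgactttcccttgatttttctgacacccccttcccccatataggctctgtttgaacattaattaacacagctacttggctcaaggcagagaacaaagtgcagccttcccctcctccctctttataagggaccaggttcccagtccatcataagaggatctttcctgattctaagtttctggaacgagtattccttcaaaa

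The motifs searched on both strands were TGTTTAC and TGTTTGC, forms of the forkhead motif, and AGGTCA, the half-site that nuclear receptors read, and overlapping matches were counted. Ugt1a2 holds TGTTTAC at position -45 from its start, Chil3 holds TGTTTGC on the other strand, as GCAAACA, at -66, and the other 5 windows hold none of these letters. In all, 336 promoters of 303 genes lie whole in a member. Of these, 5.65% hold TGTTTAC (exact Clopper-Pearson 95% interval 3.44% to 8.69%), against 4.06% of the 18334 promoters in eligible bins and 3.65% of all 32642. TGTTTGC is in 5.65% of the members' promoters, against 5.15% in eligible bins, and AGGTCA is in 15.8% against 16.2%. The members' intervals include the eligible share for each motif. Their promoters had a median GC content of 49.7%, against 51.3% in eligible bins.

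Members held a median of 236.5 same-bin contacts in the GW4064 library and 184 in the vehicle library, where all eligible bins held 176 and 125. The GW4064 library is deeper, with 29003442 contacts of which 27.1% are same-bin, against 22686004 and 25.1% in vehicle. In vehicle, the quantity that chose them, the members' flank ratio had a median of 1.761, quartiles of 1.696 and 1.916, and a lowest value of 1.651. It was over 2 in 96 members, over 3 in 30 and over 5 in 10. High ratios rest partly on low flanks: the flank median of the members was 101.8, against 117 over eligible bins, and 235 members had a flank median under 100, where 7.68% of eligible bins did. Of the members, 138 (27.6%) had at least 1 flank bin with no same-bin contact in vehicle, against 5% of eligible bins. Several results are given with and without those 138. The member of highest rank, the bin of the pheromone receptor gene Vmn1r159, had 189 contacts in GW4064 and 117 in vehicle beside a vehicle flank median of 0, so its vehicle ratio is not finite.

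The word peak, taken as a bin above all its neighbours, holds for some of the members and not for others. In vehicle, 294 of 500 (58.8%) were above every bin of their flank, where 3.27% of eligible bins were, and the other 206 had at least 1 equal or higher bin within 1 Mb. The rule chose on these same vehicle counts and flanks, so the vehicle share describes the choice and is no separate support. In GW4064, 214 (42.8%) were above every flank bin, where 3.15% of eligible bins were. The edge of the set is narrow. Just inside it lay the bin of Zfp677, with 207 contacts in GW4064 and 189 in vehicle, and the bin of Spink6, with 271 and 189. Just outside lay the bin of Kcnd2, with 315 and 189. All 3 had the same vehicle flank median of 114.5 and so the same ratio of 1.6507, and the order of the bin table alone put Kcnd2 outside.

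**Figure D1:**
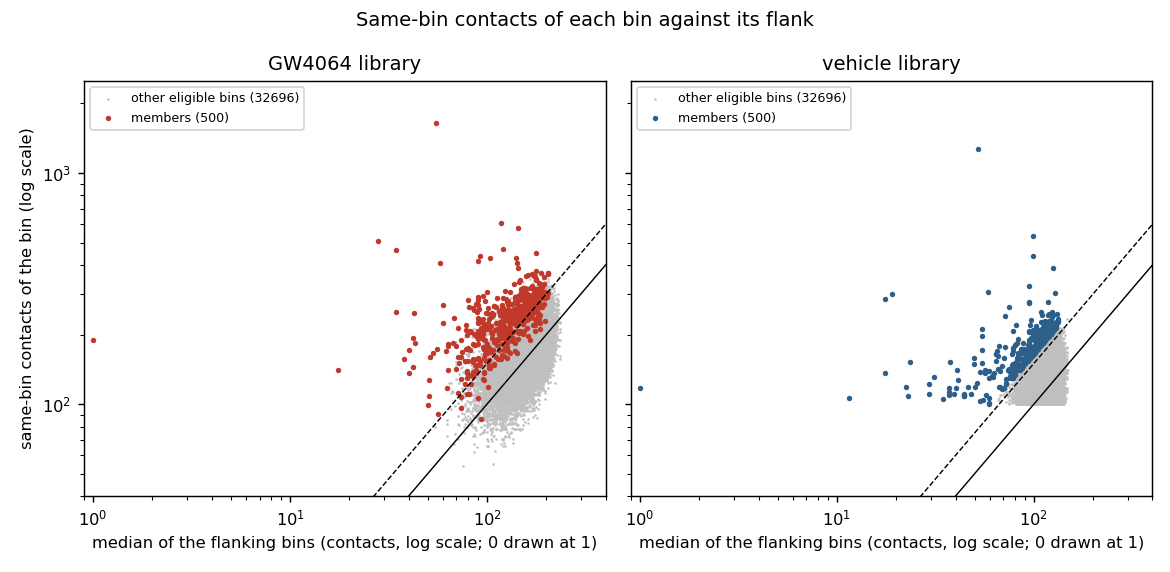
Same-bin contacts of each eligible bin against the median of its flanking bins, both on log scales, in the GW4064 library (left) and the vehicle library (right). The solid line is equality and the dashed line 1.5 times the flank. Members are coloured. In vehicle, where they were chosen, the lowest lies at 1.651 times its flank, and in GW4064 409 of 500 lie at or above 1.5.

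Most members also stood above their flank in the GW4064 library, which the rule did not use. Their GW4064 flank ratio had a median of 1.74 and quartiles of 1.567 and 2.103, against a median of 1.083 over eligible bins. A ratio of at least 1.5 was found in 409 members (81.8%), where 6.11% of eligible bins had one, and in 284 of the 362 members (78.5%) with no empty flank bin. Of the 500, 499 lay above the flank median, where 65% of eligible bins did. The exception was the bin of Ctcfl, a testis paralog of the insulator protein CTCF, on chr2:173100001-173150000, which held 86 contacts in GW4064 and 132 in vehicle, with ratios of 0.925 and 1.68.

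The sets chosen in each library shared part of their bins. When the same rule was run on GW4064, 219 of its 500 highest bins were members, which is 43.8% of each set (exact Clopper-Pearson interval 39.4% to 48.3%), where 1.39% of eligible bins were among those 500. Of the 362 members with complete flanks, with no empty flank bin, 37.6% were shared, and of the 138 others 60.1%. Of the members ranked 1 to 50 in vehicle, 49 were among the 500 of GW4064. Of those ranked 51 to 250, 114 of 200 were, and of those ranked 251 to 500, 56 of 250. Flank bins that are empty in vehicle lie beside 36 of the first 50. With complete flanks, 13 of 14, 81 of 144 and 42 of 204 were shared in these 3 ranges of rank. The 1000 highest GW4064 bins held 317 members, where 2.86% of eligible bins were among them, and the 2000 highest held 403, where 5.78% were. Over 33195 eligible bins the flank ratios of both libraries had a Spearman correlation of 0.694, a description across bins that are not independent and that share mappability and gene content.

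The highest finite ratio in vehicle belonged to a bin of Sfi1, a gene for a centrin-binding protein of the spindle pole, at chr11:3150001-3200000. It held 1648 same-bin contacts in GW4064 and 1267 in vehicle, with flank ratios of 30 (exact Poisson interval 28.5 to 31.4, with the flank taken as fixed) and 24.4 (23.0 to 25.7). Its contacts with other chromosomes numbered 7202 in GW4064 and 6205 in vehicle, 43.8 and 30.6 times its flank, and its distant contacts, over 1 Mb away on the same chromosome, were 4.56 and 4.61 times its flank. Its local contacts, with bins within 1 Mb, numbered 129 and 113, only 1.39 and 1.3 times the flank. The excess of this bin over its flank was thus smallest for local contacts. It lies near the first covered bins of the chromosome, and 19 of its flank bins, the same bins that local contacts reach, were empty. Whether this gap lowers its local ratio was not tested.

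A zinc finger gene cluster on chromosome 4 gave several of the strongest members. The bin of Zfp992 at chr4:146450001-146500000 held 466 contacts in GW4064 and 285 in vehicle, with flank ratios of 13.5 and 16.3. The next bin, of Zfp981 and Zfp993, held 251 contacts in GW4064 and 136 in vehicle, with ratios of 7.28 and 7.77. Further along the chromosome, 3 adjacent bins of Zfp982 held 439, 268 and 417 contacts in GW4064 and 240, 142 and 263 in vehicle. All of these bins had 3 to 8 empty bins in their flank. For the first Zfp982 bin the local ratio was 4.96 in GW4064 and 3.72 in vehicle, and the ratio of contacts with other chromosomes was 4.99 and 3.96, so that local contacts were as far above the flank as those with other chromosomes, unlike at Sfi1.

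The locus of the Ugt1a genes, which share their last exons and encode enzymes that conjugate bilirubin and drugs with glucuronic acid, had the highest ratio of any member with a complete flank. The bin chr1:88200001-88250000 holds Ugt1a1 (chr1:88211959-88220002), and it held 605 same-bin contacts in GW4064 and 533 in vehicle, with ratios of 5.15 (4.75 to 5.58) and 5.38 (4.94 to 5.86). Its neighbour, with Hjurp, a gene for the chaperone of the centromere histone, and part of Mroh2a, held 467 and 438, with ratios of 3.89 and 4.42. Contacts with other chromosomes were 8.43 times the flank in GW4064 and 7.36 times in vehicle for the Ugt1a1 bin, and 7.57 and 7.47 times for the Hjurp bin. Local contacts were 2.10 and 2.43 times the flank for the Ugt1a1 bin, and 2.06 and 2.54 times for the Hjurp bin. Scaled to equal same-bin totals, the log2 ratio of GW4064 over vehicle was -0.28 (exact conditional binomial interval -0.45 to -0.11) in the Ugt1a1 bin and -0.37 (-0.56 to -0.18) in the Hjurp bin. The vehicle counts in these log2 ratios also chose the bins, so the values describe the choice as well as the libraries.

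Other gene clusters gave pairs or runs of members. The Mup5 bin at chr4:61800001-61850000, in the cluster of major urinary proteins, which are lipocalins that liver secretes, held 406 contacts in GW4064 and 305 in vehicle, with ratios of 7.0 and 5.21 and 7 empty flank bins. Chil3 and Chil4, genes for secreted chitinase-like proteins, lie in 2 neighbouring members. The Chil3 bin held 450 contacts in GW4064 and 304 in vehicle, with ratios of 2.54 and 2.38, and the Chil4 bin held 376 and 244, with ratios of 2.13 and 1.94. Neither flank had an empty bin. Beside Prl2c3, a prolactin-family gene, 3 adjacent bins from 12800001 to 12950000 on chromosome 13 held 579, 429 and 390 contacts in GW4064 and 326, 276 and 273 in vehicle. Only the start of the gene, with its promoter, lies in the first of these bins, which stood at 4.03 times its flank in GW4064 and 3.47 times in vehicle.

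A member with no protein-coding gene, chr17:39800001-39850000, holds Rn18s-rs5, a pseudogene related to the 18S ribosomal RNA at 39846354 to 39848202. It held 369 same-bin contacts in GW4064 and 388 in vehicle, with ratios of 1.81 and 3.10. Its contacts with other chromosomes numbered 1363 in GW4064 and 1627 in vehicle, 6.41 and 8.59 times the flank. Its local contacts numbered 398 in GW4064 and 229 in vehicle, only 1.16 and 1.09 times the flank. Scaled to equal totals of local contacts, their log2 ratio of GW4064 over vehicle was 0.29 (0.05 to 0.53). Of its partners on other chromosomes, the bin of Limd1 and Lars2 on chromosome 9 shared 24 contacts with it in GW4064 and 48 in vehicle, and a bin with no coding gene at 3200001 to 3250000 on chromosome 6 shared 12 and 59.

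**Figure D2:**
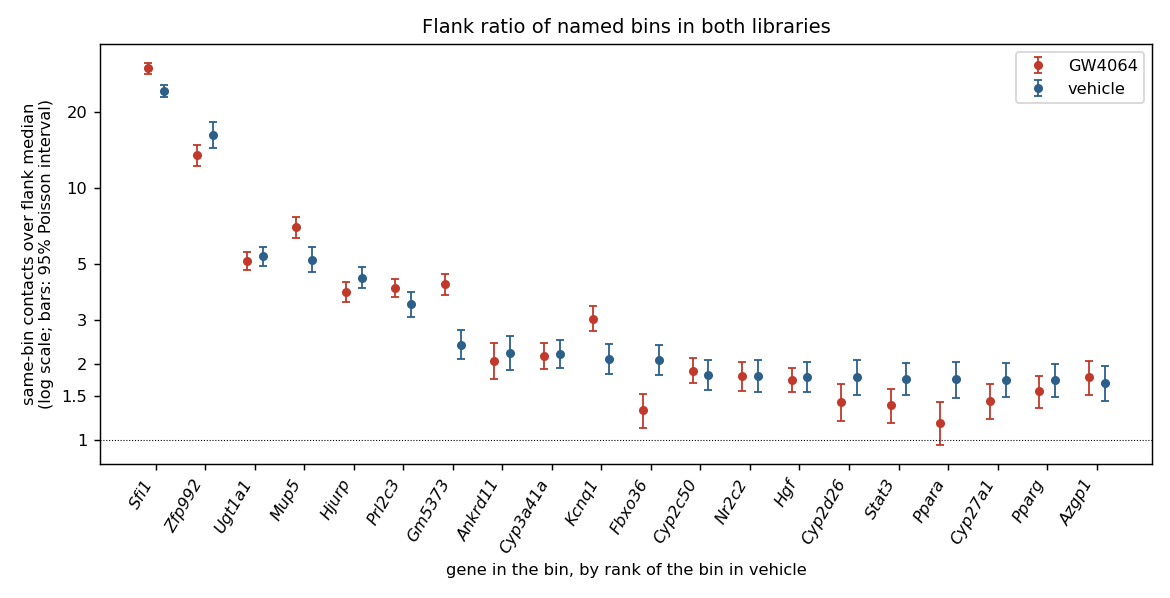
Same-bin contacts over the flank median (log scale) for 20 named members in the GW4064 library (left point of each pair) and the vehicle library (right point), with exact 95% Poisson intervals that take the flank as fixed. Bins run by vehicle rank; those of Sfi1, Zfp992, Ugt1a1, Mup5 and Hjurp lie at 3.89 or above in both libraries, and the Ppara bin is at 1.17 in GW4064.

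Members also stood above their flank in contacts with other bins, by less than within the bin. Contacts with the adjacent bins were a median of 1.522 times the flank in GW4064 and 1.45 times in vehicle, local contacts 1.387 and 1.348 times, distant contacts 1.334 and 1.311 times, and contacts with other chromosomes 1.363 and 1.302 times. The same medians over eligible bins lay between 1.04 and 1.054. Without the members that have empty flank bins, the medians were 1.371 and 1.341 for local, 1.285 and 1.284 for distant, and 1.333 and 1.282 for other chromosomes. Same-bin contacts made up 18.82% of a member's contacts in GW4064 and 18.0% in vehicle, against 16% and 14.77% over eligible bins. The vehicle share follows from the rule, which chose on the same-bin count.

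**Figure D3:**
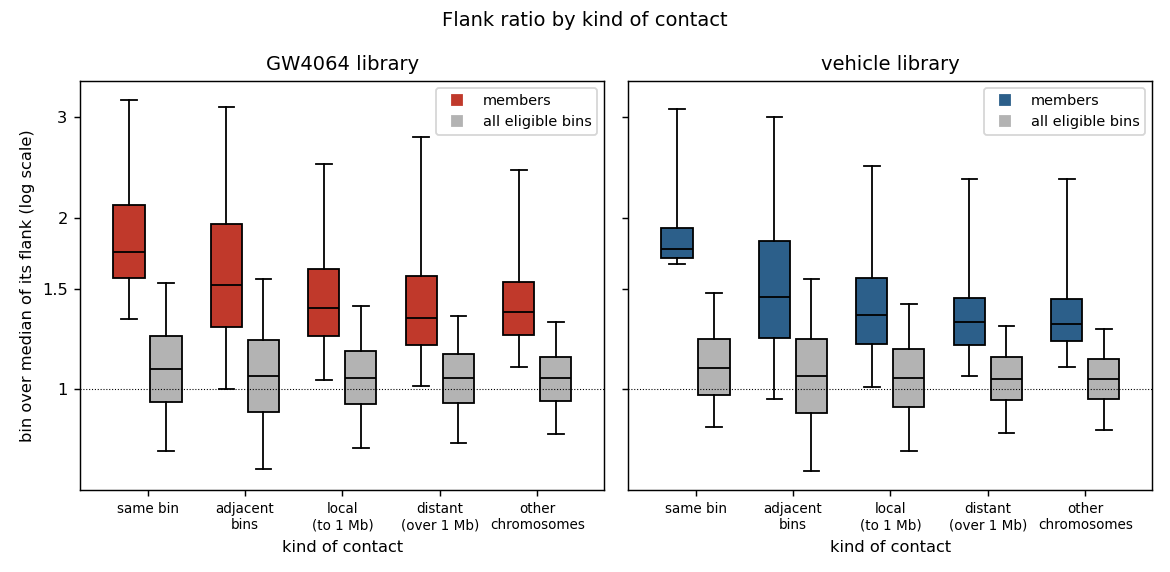
Contacts of a bin over the median of its flank (log scale) by kind of contact in the GW4064 library (left) and the vehicle library (right), for members (coloured) and all eligible bins (grey). Boxes span the quartiles with the median as a line, and whiskers reach the 5th and 95th percentiles. Member medians lie between 1.302 and 1.387 for local, distant and other-chromosome contacts, above the eligible medians of 1.04 to 1.047; the vehicle same-bin box is cut at 1.651 by the rule.

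Nearly all members were above the flank median in each class. In GW4064 this held for 485 in local contacts (background 61.1%), 476 in distant contacts (background 61.6%) and 497 in contacts with other chromosomes (background 62.3%). In vehicle it held for 476 (background 60.2%), 483 (background 62.7%) and 494 (background 62.8%). Fewer reached 1.5 times the flank. For local contacts there were 183 members (36.6%) in GW4064, where 2.42% of eligible bins reached it, and 151 (30.2%) in vehicle, where 2.52% did. For distant contacts there were 149 (29.8%; background 1.44%) in GW4064 and 107 (21.4%; background 0.651%) in vehicle. For contacts with other chromosomes there were 145 (29.0%; background 1.02%) and 95 (19%; background 0.452%). Of the members, 62 (12.4%) in GW4064 and 49 (9.8%) in vehicle reached 1.5 in all 3 of these classes, where 0.262% and 0.16% of eligible bins did. None of the 3 was reached by 230 (46%) in GW4064 and 288 (57.6%) in vehicle. Among the 362 members with complete flanks, 25 (6.91%) and 17 (4.7%) reached all 3. The vehicle values share their library with the rule.

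The extremes show that local and distant contacts can part. In vehicle, the 2 members at 9200001 to 9250000 and 9450001 to 9500000 on chromosome 19, with no coding gene, had local contacts of 0.674 and 0.812 times their flank and distant contacts of 1.73 and 1.62 times. In GW4064 their local ratios were 1.00 and 1.12 and their distant ratios 1.93 and 2.05. The bin of Parp8, a gene of the ADP-ribosyltransferase family, had a local ratio of 1.16 in GW4064 and 0.851 in vehicle. At the other end, 3 adjacent members with no coding gene at 21450001 to 21600000 on chromosome 12 had local ratios of 2.49 to 2.91 in GW4064 and 2.88 to 3.78 in vehicle, and distant ratios of 1.40 to 1.65 and 1.69 to 1.72.

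By distance, members held more contacts than eligible bins at short and very long range and fewer in between. The mean count of a member was 1.35 times that of an eligible bin in GW4064 and 1.43 times in vehicle within the bin, 1.17 and 1.17 times at 50 kb, and 1.11 and 1.12 times at 100 kb. It was 0.897 and 0.935 times at 550 to 1000 kb, and over 10 Mb it was 1.16 times in both libraries. These ratios set members against eligible bins anywhere in the genome and not against their own flank, and the members lie in thinner surroundings.

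**Figure D4:**
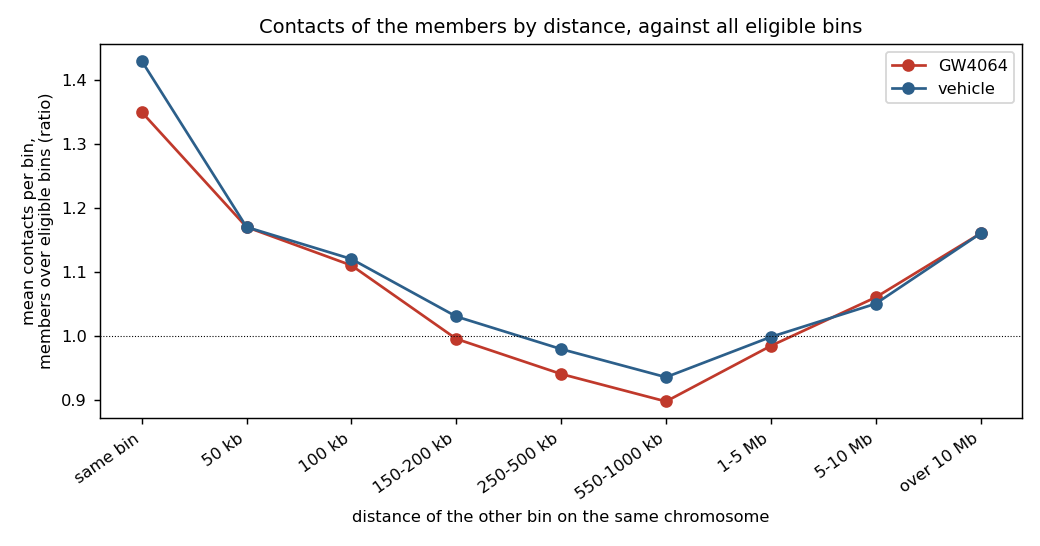
Mean contacts per member divided by mean contacts per eligible bin (y axis, ratio) against the distance of the other bin on the same chromosome (x axis, 9 bands) in the GW4064 and vehicle libraries. Both curves fall from 1.35 and 1.43 within the bin to 0.897 and 0.935 at 550 to 1000 kb and rise to 1.16 over 10 Mb.

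Members contacted each other more than eligible bins at the same distance, but this depended on the flanks. Between 100 kb and 2 Mb, 438 pairs of members shared 3097 contacts in GW4064 where 2471 were expected from distance, a ratio of 1.25 (exact Poisson interval 1.21 to 1.3), and 2055 in vehicle where 1666 were expected, a ratio of 1.23 (1.18 to 1.29). Without the members that have empty flank bins the ratios were 1.02 (0.959 to 1.08) and 1.14 (1.07 to 1.22). Between chromosomes, 2.3% of the members' contacts went to other members in both libraries, against 2.0% and 2.01% of the contacts of other eligible bins. Single pairs stood out at bins near the first covered bins of chromosomes: the Gm52720 bin on chromosome 4 shared 64 contacts in GW4064 and 36 in vehicle with the bin from 3150001 on chromosome 6, and 25 and 15 with the member from 3000001 on chromosome 13. The Zfp982 bin of rank 22 shared 42 and 24 contacts with the bin of Abcg2 at 58600001 to 58650000 on chromosome 6.

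Members were spread over all 19 autosomes but unevenly. Chromosome 7 had 62 members, 3.83% of its eligible bins (exact Clopper-Pearson interval 2.95% to 4.89%), chromosome 17 had 27, or 2.43% (1.61% to 3.52%), and chromosome 4 had 46, or 2.24% (1.64% to 2.97%), against 1.51% over all autosomes. The lowest shares were 0.756% on chromosome 9, with 13 members, and 0.788% on chromosome 3, with 19. Members with complete flanks made up 1.73% of all eligible bins on chromosome 7, 2.34% on chromosome 17 and 0.827% on chromosome 4, against 1.09% over all autosomes. The eligible bins counted here include those with empty flank bins. Within 2 Mb of the first covered bin of a chromosome lay 28 members (5.6%), where 1.58% of eligible bins lie, and within 2 Mb of the last lay 13 (2.6%; background 1.52%). Only 2 of those 28 and 3 of those 13 had a complete flank.

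**Figure D5:**
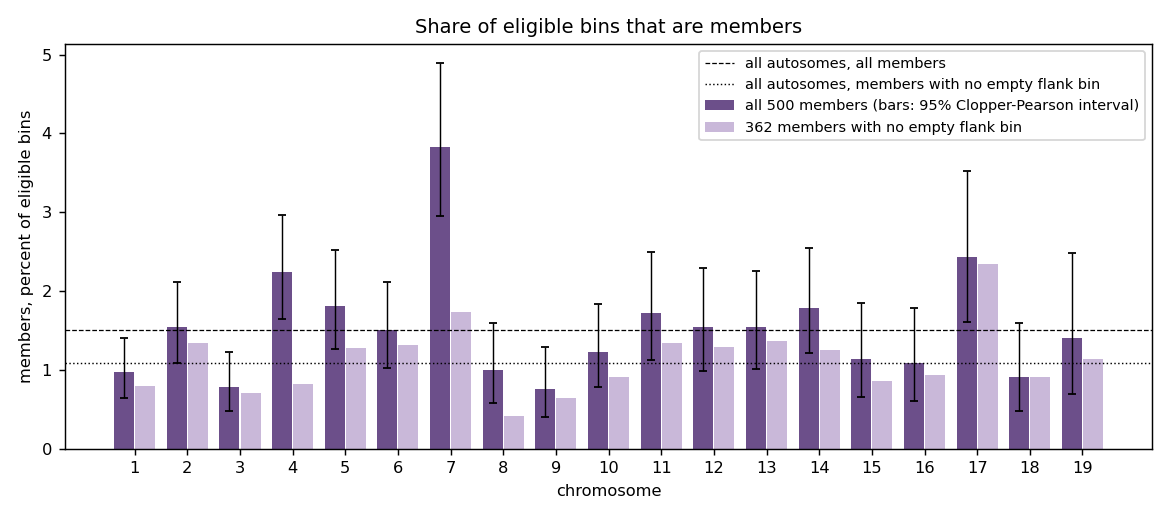
Members as a percent of the eligible bins of each autosome, for all 500 members (dark bars, with exact 95% Clopper-Pearson intervals) and for the 362 with no empty flank bin (pale bars). The dashed and dotted lines are the 1.51% and 1.09% over all autosomes for these sets; chromosome 7 is highest at 3.83% and has 1.73% with complete flanks, while chromosome 17 has 2.43% and 2.34%.

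Of the members, 105 of 500 (21%) lay next to another member, where 1.94% of eligible bins lay next to a member, and they formed 39 runs of 2, 7 of 3 and 1 of 6. With complete flanks only, 14.6% of the 362 lay next to another of them, where 1.58% of the 31537 eligible bins with complete flanks did. The run of 6, chr7:10500001-10800000, holds the pheromone receptor genes Vmn1r68 to Vmn1r71 and Nlrp4b, of a family of innate immune and oocyte proteins. Its bins held 233, 215, 279, 204, 243 and 228 contacts in GW4064 and 140, 136, 177, 144, 156 and 158 in vehicle, all above 1.65 times their flank in both libraries. Neighbours share flank bins, so their ratios are not independent.

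A protein-coding gene overlapped 336 members (67.2%), where 55% of eligible bins overlap one, and any annotated gene overlapped 407 (81.4%), where 73.7% do. With complete flanks the coding share was 64.1%. The surroundings were gene-rich as well: the 41 bins centred on a member held a median of 21 coding genes, against 10 for eligible bins. Among members with a coding gene, 147 (43.8%) had local contacts of at least 1.5 times the flank in GW4064, where 3.63% of eligible bins with one did. Among those without one, 36 (22.0%) did, where 0.95% of such eligible bins did, so bins with a coding gene reached 1.5 more often in both populations.

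By family, receptor genes of smell and pheromones and zinc finger genes took more members than their share of eligible bins, with part of them beside gaps in coverage. Vomeronasal receptor genes lay in 20 members (4.0%; background 0.633%), 12 of them on chromosome 7 and 13 with an empty flank bin. Zinc finger genes lay in 17 (3.4%; background 1%), 10 of them on chromosome 4 and 12 with an empty flank bin. Olfactory receptor genes lay in 14 (2.8%; background 1.52%), 7 of them with an empty flank bin. Among the eligible bins of these families, an empty flank bin was found for 56 of 210 vomeronasal, 44 of 332 zinc finger and 53 of 506 olfactory bins. Cytochrome P450 genes lay in 6 (1.2%; background 0.337%), none with an empty flank bin, and solute carrier genes in 5 (1.0%; background 1.28%). Major urinary protein genes lay in 5 members of the 7 eligible bins that hold one, and all 7 bins had an empty flank bin. Serpin (background 0.151%), histone (background 0.0361%), cytosolic ribosomal protein (background 0.114%), Hox (background 0.0211%) and complement genes (background 0.0331%) overlapped 0 members, and each has too few eligible bins for 1.51% to make 1 member. Looked up after the values were seen, Nlrp genes lay in 10 members of 34 eligible bins (background 0.102%). An empty flank bin was found for 9 of the 10 and for 21 of the 34. Secretoglobin genes lay in 4 of 22 (background 0.0663%), Ceacam genes in 4 of 9 (background 0.0271%) and defensin genes in 2 of 17 (background 0.0512%). Of these members, 1, 1 and 2 had an empty flank bin. How alike the gene copies in each family are was not measured, and no source used here says how reads that match several copies were treated.

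Genes of 20 lists of liver and comparison genes overlapped 15 members (3.0%), where 3.27% of eligible bins overlap one, so the lists together were near the background. Xenobiotic metabolism had 4 members (background 0.241%), and nuclear receptors 3 (background 0.235%). Secreted hepatocyte proteins (background 0.139%), FXR-induced genes (background 0.0753%), bile acid synthesis and transport (background 0.13%), glucose and amino acid metabolism (background 0.16%) and acute phase genes (background 0.0633%) had 1 member each. So did the markers of stellate cells (background 0.0813%) and cholangiocytes (background 0.0843%), neuronal genes (background 1.1%) and long noncoding RNA genes (background 0.0452%). The other lists had 0 members: liver transcription factors (background 0.193%), lipid and cholesterol metabolism (background 0.175%), the circadian clock (background 0.0964%), immediate early genes (background 0.0723%), Kupffer cell and leukocyte markers (background 0.0542%), endothelial markers (background 0.0783%), muscle genes (background 0.102%), housekeeping genes (background 0.0994%) and developmental transcription factors (background 0.142%). Each of these had between 18 and 64 eligible bins, too few for 1.51% to make 1 member.

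The P450 genes were among the members with a complete flank. The bin chr5:145650001-145700000, which Cyp3a41a overlaps from 145694049 on, held 277 contacts in GW4064 and 242 in vehicle, with ratios of 2.17 and 2.2. The bin of Cyp2c54 and Cyp2c50 at chr19:40050001-40100000 held 301 and 205, with ratios of 1.89 and 1.82. Cyp2d26 and Cyp2d40 at chr15:82750001-82800000 had 137 and 164, with ratios of 1.42 and 1.78. The bin of Cyp27a1, the sterol hydroxylase of the alternative route of bile acid synthesis, held 160 and 173, with ratios of 1.43 and 1.74. For the first pair of bins the ratios in both libraries lay within each other's intervals, and in the Cyp2d26 and Cyp27a1 bins the GW4064 ratio was the lower.

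Nuclear receptor genes gave 3 members of middle rank. Nr2c2, the testicular receptor 4, had 230 contacts in GW4064 and 187 in vehicle, with a ratio of 1.80 in both. Pparg, the receptor of fat cell differentiation, had 195 and 178, with ratios of 1.57 and 1.73. Ppara, the receptor that senses fatty acids in liver and a gene that FXR induces in human liver cells, had 106 and 144, with ratios of 1.17 (0.959 to 1.42) and 1.75 (1.47 to 2.05). Its local ratio was 1.31 and 1.37.

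Single list members were spread over other functions. Stat3, which carries interleukin 6 signals, had 163 contacts in GW4064 and 189 in vehicle, with flank ratios of 1.38 and 1.75. Azgp1, a secreted lipid-mobilizing glycoprotein, had 176 and 156 (1.78 and 1.69). Mat1a, which makes S-adenosylmethionine in liver, shared its bin with Sftpa1 and had 158 and 141 (1.63 and 1.84). Hgf, the growth factor that stellate cells make for hepatocytes, had 314 and 207 (1.73 and 1.79), and Nrxn3, a synaptic adhesion gene, had 319 and 210 (1.71 and 1.78). The bin of Kcnq1, a potassium channel gene in an imprinted domain, which also overlaps the noncoding RNA gene Kcnq1ot1 at 143213111 to 143296547 on chromosome 7, had 306 and 209, with ratios of 3.04 (2.71 to 3.41) and 2.11 (1.83 to 2.42).

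Of 466 coding genes that overlap a member, 30 overlapped 2 or more. A gene that reaches over several bins has more chances to do so: 242 of the 466 (51.9%) overlap 2 or more eligible bins, against 35.7% of the 14101 coding genes over eligible bins. The 2 genes in 3 members each were Zfp982 and Asap2, a gene for a regulator of Arf proteins in membrane traffic. Asap2 had 332 contacts in GW4064 and 344 in vehicle over its 3 members, with ratios of 1.3 to 1.76 and 1.68 to 2.58. Of the 28 genes in 2 members, the following were picked after their values were seen. Setd5, of the SET domain family, had 542 contacts in GW4064 and 396 in vehicle (ratios 2.2 to 2.38 and 1.77 to 2.13). Ncoa3, a coactivator of nuclear receptors, had 393 and 365 (1.64 to 3.25 and 1.81 to 2.73), and Eea1, an early endosome tether, had 610 and 426 (2.0 to 2.11 and 1.76 to 2.04). Dis3l2, an RNA exonuclease, had 490 and 393 (1.92 to 2.08 and 1.79 to 1.8).

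Between libraries, members held fewer same-bin contacts in GW4064 than the scaling predicts, a comparison that uses the counts that chose them in vehicle and therefore describes the choice as well as the libraries. Scaled to equal same-bin totals, the median log2 ratio of GW4064 over vehicle was -0.06, against 0.01 over eligible bins, a difference of -0.07 that no common scaling can change. Scaling to all contacts raised every log2 value by the same amount, to medians of 0.05 and 0.12, with 1.8% of members at least 1.5-fold lower. Under the scaling to same-bin totals, the bins chosen by the same rule in GW4064 had a median of 0.11. The sign thus differed with the scaling and with the library used to choose, and the reason was not tested. Under the scaling to same-bin totals, 26 members (5.2%) were at least 1.5-fold lower in GW4064, where 2.49% of eligible bins were, and 0 were at least 1.5-fold higher, where 0.214% were. For local contacts, which did not enter the rule, 11 members (2.2%) were at least 1.5-fold lower, where 1.66% of eligible bins were, and 1 was higher, where 0.0964% were. The local median was 0.01, against 0.04 over eligible bins. Of all sizes, 236 members (47.2%) were lower in local contacts (background 42.8%), 50.2% in distant contacts (background 47.3%) and 49.8% in contacts with other chromosomes (background 44.3%), against 307 (61.4%; background 48.3%) within the bin. At 1.5-fold, distant contacts were lower in 5 members (background 1.2%) and higher in 0 (background 0.012%), and contacts with other chromosomes were lower in 1 (background 0.268%) and higher in 1 (background 0.193%).

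Members with a coding gene had a median log2 ratio of -0.11 for same-bin contacts and members without one -0.005, and over eligible bins the values were -0.05 and 0.07. Among members with at least 300 same-bin contacts over both libraries, the lowest were the bin of Fbxo36, an F-box protein gene, with 169 contacts in GW4064 and 206 in vehicle and a log2 ratio of -0.75 (interval -1.05 to -0.45), and the Cyp2d26 bin at -0.72 (-1.06 to -0.39). One Ankrd11 bin had -0.69 (-1.01 to -0.36), the Stat3 bin -0.68 (-0.99 to -0.37) and the bin of Ogfod3 and Uts2r -0.67 (-1.0 to -0.34). In their local contacts these had -0.20 (-0.46 to 0.05), -0.63 (-0.88 to -0.39), -0.52 (-0.76 to -0.28), -0.91 (-1.17 to -0.65) and -0.47 (-0.78 to -0.17), and the interval of the Fbxo36 bin includes 0. The highest were 2 Zfp982 bins at 0.45 (0.15 to 0.76) and 0.41 (0.18 to 0.64), the Zfp981 bin at 0.42 (0.11 to 0.73), the Gm5373 bin at 0.42 (0.19 to 0.66) and the bin of Vmn1r52 at 0.40 (0.12 to 0.69). Their local values were 0.03 (-0.21 to 0.27), 0.16 (-0.02 to 0.35), 0.42 (0.16 to 0.68), 0.09 (-0.11 to 0.30) and 0.23 (-0.05 to 0.52), of which that of the Zfp981 bin alone excludes 0. All 10 were picked as extremes, and their intervals cover counting error only.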

How the data were processed

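Foxa2 HiChIP was measured in 1 library of GW4064-treated and 1 of vehicle-treated mouse liver. Per the labels' protocols the Arima-HiC+ kit and a Foxa2 antiserum were used, and the submitters' processing notes name mm10, Bowtie2 2.2.9 and HiC-Pro. No source used here gives the version of HiC-Pro, its filters, or what was done with duplicates and multiply mapped reads. The deposited matrices hold raw counts of contacts per pair of 50 kb bins, and the deposited bin tables an index of no other unit, identical for both libraries. The GW4064 library held 29003442 contacts and the vehicle library 22686004.

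Flank ratios divide a bin's contacts by the median over 20 bins either side on its chromosome. Local contacts reach 1 Mb. Library ratios were scaled to equal autosomal same-bin totals, or to equal totals of their class. Expected contacts of pairs are the mean over eligible pairs at the same distance. A bin with a flank median of 0 ranks first. Intervals are 95%. Those of counts, flank ratios of single bins, pair contacts and library ratios cover counting error only. Those of shares and medians treat bins or promoters as independent, although neighbouring bins share flank bins. The choice of members was tried on simulated counts with planted peaks of 3-fold on a smooth background without empty bins. Those peaks are stronger than most members, so the trial does not show how well weaker peaks or gapped flanks are handled. Of the intervals, only that of the library ratio was tried there. Genes came from the RefSeq table of GRCm38.p6, whose 703 list genes all matched. Members and lists were chosen with earlier results of these data known. Named are the 10 highest members, up to 3 per list, those at the edge of the set, the 5 highest and lowest by log2 ratio with at least 300 contacts, the longest runs, and the extremes of local and other-chromosome ratios; from these, examples are printed. The promoters printed and the bins of Ctcfl, Chil3, Chil4 and Gm52720 and the partner bins were chosen after their values were seen. The software was scipy 1.17.1, numpy 2.4.6 and pandas 2.3.3 in Python 3.11.15, with figures from matplotlib 3.10.9.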

Additional observations from a re-analysis of the deposited data

How the results depend on the processing

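Over 124 recomputed values, 46 stayed within the 95% interval of the value reported, 75 left it and 3 changed sign. For shares and medians that interval treats bins as independent. The cause of the changes was not tested. In the order share of members among the 500 highest GW4064 bins, median GW4064 same-bin flank ratio, median flank ratios in GW4064 and vehicle for local, distant and other-chromosome contacts, share of members next to another, and pair contacts over expected, the values that left were as follows. A flank of 10 bins gave 1.7, 1.34 and 1.3 for local, 1.33 for other chromosomes in GW4064, 15.8%, and 1.42 and 1.35 for pairs. A flank of 40 bins gave 48.6%, 1.83, 1.45 and 1.38, 1.37 and 1.35, 1.4 and 1.33, 25.6%, and 1.16 and 1.17. A flank without empty bins gave 1.69, 1.36 for local in GW4064, 1.3 and 1.29, 1.33 and 1.27, 16.2%, and 1.34 and 1.3. The 250 highest bins gave 51.2%, 2.04, 1.51 and 1.45, 1.46 and 1.4, 1.49 and 1.4, 26.8%, 1.53 and 1.41, and 71.6% with a coding gene. The number of bins was changed in both libraries, so 51.2% is the share among the 250 highest GW4064 bins. The 1000 highest gave 1.62, 1.31 and 1.29, 1.28 and 1.27, 1.28 and 1.25, and 16.7%. A minimum of 200 contacts leaves 208 eligible bins, all of them then members, and gave 38.9%, 1.63, 1.32 and 1.31, 1.27 and 1.29, 1.28 and 1.28, 7.69%, 47.6% with a coding gene, 0.481% at least 1.5-fold lower in GW4064, a median log2 ratio of 0.003, and no value for pairs. The 38.9% is the share among the 500 highest GW4064 bins that also held at least 200 contacts in GW4064. Members with complete flanks, chosen after seeing the data, gave 37.6%, 1.7, 1.28 and 1.28 for distant, 1.33 and 1.28, 14.6%, and 1.02 and 1.14. Local contacts up to 500 kb had 1.43 in GW4064, and without adjacent bins 1.31 in GW4064 and 1.32 in vehicle. Pairs given their local contacts had 1.69 and 1.58. Counting half-overlaps, 61.2% held a coding gene. Scaling to all contacts turned the median log2 ratio to 0.05 with 1.8% lower, beside an eligible median of 0.12, and choosing bins in GW4064, added after seeing the data, turned it to 0.11 with 0.4% lower. Thinning GW4064 to the vehicle total moved none of its 4 values out of the interval. No paired analysis was possible because each group has 1 library. Counts near 100 per bin, with an exact Poisson interval for 117 contacts of 96.8 to 140, limit the precision of single flank ratios.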

Other observations

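Chromosome X lies outside the rule. Of its bins, 50 held at least 100 same-bin contacts in vehicle, with flank medians of at most 72.5, against a median of 117 over eligible autosome bins. The minimum of 100 alone therefore gives these bins a ratio well above 1. Of the 50, 27 (54.0%) were at or above the lowest member ratio of 1.651, where 1.51% of eligible autosome bins were, and that share is not a comparison of the chromosomes. The bin at 31700001 to 31750000 held 215 contacts in GW4064 and 128 in vehicle beside a vehicle flank median of 3, with ratios of 71.7 and 42.7. The bin at 24000001 to 24050000 held 191 and 135, with ratios of 2.25 and 2.48. No member is on this chromosome because only autosomes were ranked.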
